A study of Mus musculus with 13 samples.

Results

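The circadian clock genes described here are Arntl (also called Bmal1), Clock and Npas2, which encode activators, Per1, Per2, Cry1 and Bhlhe40, which encode repressors, and Dbp, an output gene. They were measured in mouse brain hemispheres on Affymetrix MG-U74Av2 arrays, where sets of short probes, 1 or several for a gene, report its RNA. All probe sets that the array's annotation assigns to 1 of these 8 genes alone were taken, which gave 10 of the 12422 gene probe sets. Of the 10, 8 passed a filter on dim probe sets, 1 for each gene, among 7453 that passed in all. The 2 that did not pass were further probe sets of Cry1, which read 0.1 to 5.5 and 0.1 to 4.6 over the arrays. The Cry1 probe set that passed read 108.1 to 210.5, so the probe sets of this gene disagree in level. All Cry1 results below are of that brighter probe set, and whether its signal is specific to Cry1 was not tested.

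The study asked what a combined drug treatment does in the R6/2 mouse, a model of Huntington's disease whose transgene is exon 1 of human huntingtin with an expanded CAG repeat. There were 3 arrays of untreated wild type mice, 3 of treated wild type mice, 4 of untreated R6/2 mice and 3 of treated R6/2 mice. The treatment joined tacrine, a cholinesterase inhibitor, at 2.7 mg/kg per day from 5 weeks of age, moclobemide, an inhibitor of monoamine oxidase A, at 10 mg/kg per day, and creatine at 1% in wet mash. The sample descriptions name these drugs for all 13 samples, so the groups follow the titles, and an age at harvest, 8 weeks, is given for untreated wild type array 2 alone. The labels state neither sex nor strain background, neither a light cycle nor a time of day at harvest, and not whether each array is a separate animal. The values are therefore levels at an unstated clock time and not rhythms, and the p-values reflect only the spread among these samples, which may be technical.

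The clock is a feedback loop of transcription. ARNTL pairs with CLOCK, or in forebrain with NPAS2, binds E-box sequences and switches on the Per and Cry genes, whose proteins return to the nucleus and repress the pair. BHLHE40 competes for the same E-boxes, and DBP carries the rhythm to further genes by binding D-box sequences. In mammals the loop runs in most cells and is set by the suprachiasmatic nucleus of the hypothalamus. Per1 and Bhlhe40 are also induced rapidly by neuronal activity and by cyclic AMP signalling.

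Promoter windows of Per1 and Cry1, both E-box genes of the repressor arm, are shown because one gene changed with genotype in the data below and the other did not pass a test. They come from RefSeq (build GRCm38.p6), which had an entry for 6 of the 8 genes with 10 start sites in all: Arntl, Clock, Npas2, Per1, Cry1 and Dbp. The capitals mark a motif found by searching both strands of the 250 bases before each start, and each line is written 5′ to 3′ on the gene's strand.
Per1 E-box, first start site, chr11:69098771-69098800, plus strand, 166 bases before the start: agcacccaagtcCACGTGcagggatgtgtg
Per1 core of the cyclic AMP response element, second start site, chr11:69100008-69100037, plus strand, 132 bases before the start: gagctcagcggcTGACGTcggtttccctgg
Cry1 E-box, chr10:85185097-85185126, minus strand, 60 bases before the start: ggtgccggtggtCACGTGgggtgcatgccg
Cry1 E-prime box, motif on the opposite strand, chr10:85185116-85185145, minus strand, 79 bases before the start: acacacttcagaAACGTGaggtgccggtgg
Of 32851 mouse promoter windows of this length, 6.02% held the E-box CACGTG, 3.85% the E-prime box CACGTT and 6.47% the core TGACGT. The full cyclic AMP response element TGACGTCA, which contains the core, was in 1.55%, the D-box TTATGTAA in 0.819% and the ROR element core TAGGTCA in 2.23%. None of the 6 motifs was found in the windows of Arntl, Clock, Npas2 or Dbp. These are letter matches and not shown to be bound.

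Across the series, array medians lay between 39.6 and 45.1 intensity units. Untreated R6/2 arrays 2 and 3 stood apart, with a median rank correlation with the other arrays of 0.929 and 0.895 against 0.944 to 0.958 for the other 11. Clock gene results that rest on them are given with and without them. Cell type markers and second probe sets of a gene are given with all arrays only. Control spots on untreated R6/2 arrays 2, 3 and 4 equal those of treated R6/2 array 1, treated R6/2 array 3 and untreated R6/2 array 1 times 1.2, in 66 of 66 rows each (tolerance 0.05). The gene probe sets do not follow that ratio (63 to 89 of 12422). The lot label of treated R6/2 array 1 repeats that of untreated R6/2 array 4, although their titles differ.

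In untreated mice, the repressors Bhlhe40 and Per1 and the output gene Dbp, 3 of the 8 clock genes, were 2.31-fold to 3.07-fold lower in R6/2 brain, and none of the 8 was higher. The activator Npas2 was past the threshold as well, but its dim probe set passed the filter only through the groups where it is higher, so it is not counted with the other 3. Among all 7453 probe sets tested, 6.41% were lower and 5.49% higher at an adjusted p under 0.05, with limma and Benjamini-Hochberg adjustment over all of them. Such shares are given for scale and are no test of the lists. The 8 genes and the gene lists below were chosen with earlier results of these data known. For Bhlhe40, Per1 and Dbp every R6/2 array lay under every wild type array, which held for 12.3% of all probe sets. Npas2, not counted, was without overlap too. In either direction 11.9% of all probe sets passed, and this share moved with single arrays, from 2.09% without untreated wild type array 2 to 17.5% without untreated R6/2 array 4. It was 3.39% with only the groups compared and 2.24% without untreated R6/2 arrays 2 and 3, and Bhlhe40, Per1 and Dbp passed in each of these. With all arrays the median log2 difference was -0.75 over the 8 clock genes, Npas2 included, and 0.040 over all probe sets. In treated mice 3 of the 8, Bhlhe40, Dbp and Per1, were lower in R6/2 brain and none was higher, where the background was 0.711% lower and 0.0805% higher. In that arm every R6/2 array lay under every wild type array for those 3 and Per2, and for 8.17% of all probe sets. The same held for Npas2, which is not counted for the reason given above.

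**Figure D1:**
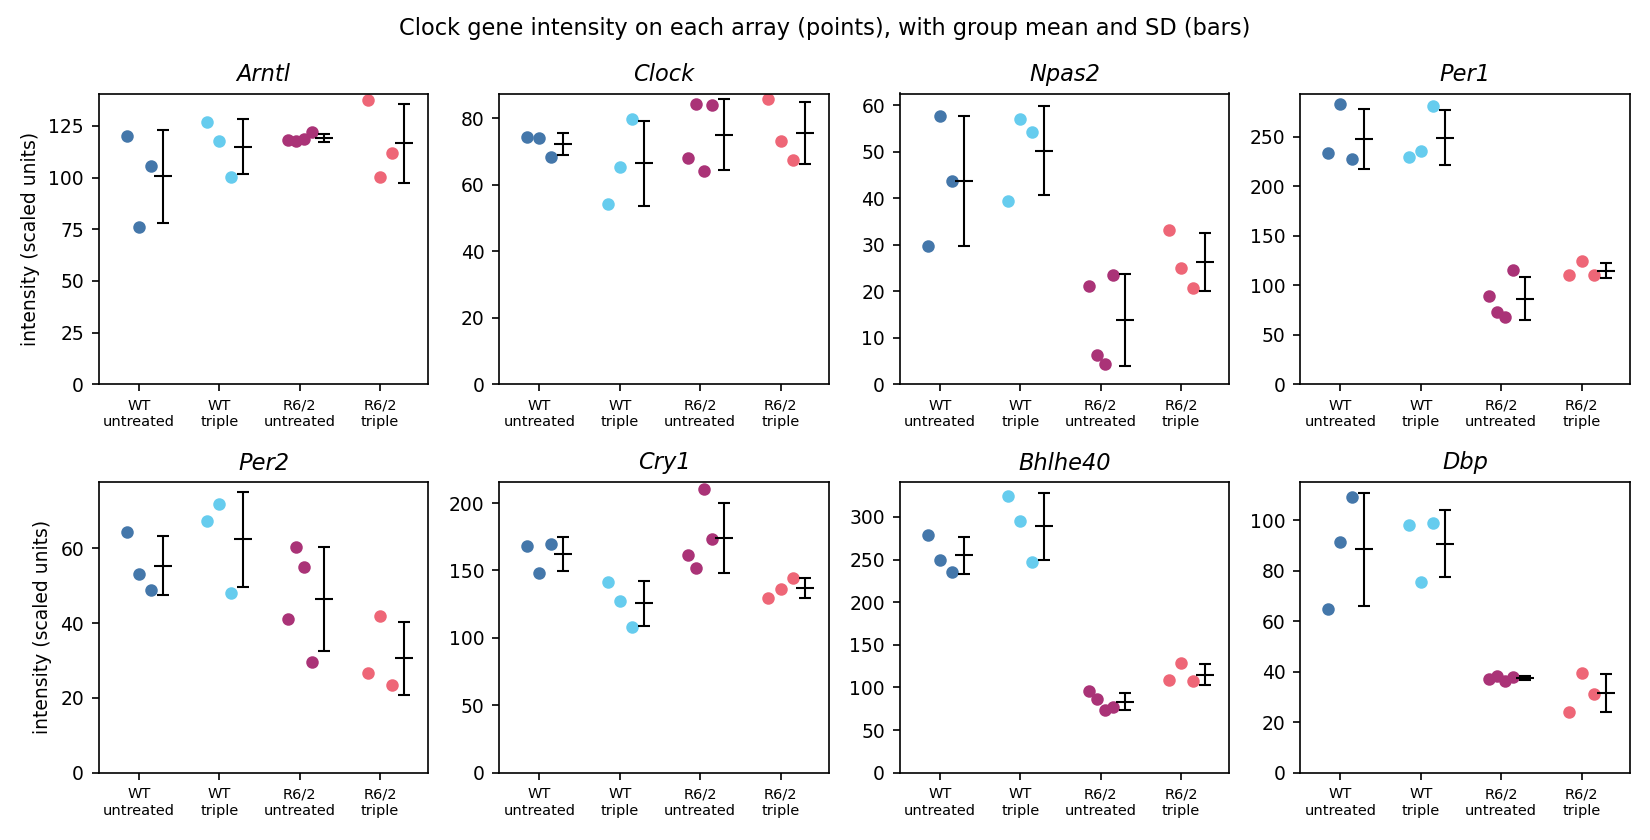
Intensity of the 8 clock genes in each of the 13 arrays (points), by group, with the group mean and SD, on linear axes that start at 0 and differ between panels. For Per1, Bhlhe40 and Dbp every R6/2 array lies below every wild type array, while the groups overlap across genotype for Arntl, Clock and Cry1.

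Among the activators, Arntl, the shared partner of the pair, read 120.1, 76.1 and 105.7 in untreated wild type arrays and 118.1, 117.5, 118.8 and 122.0 in untreated R6/2 arrays. In treated mice it read 126.8, 117.8 and 100.4 in wild type and 137.6, 100.3 and 111.7 in R6/2 arrays. The genotypes overlap in both arms, and the 4 untreated R6/2 arrays lie closer together than any other group. The R6/2 to wild type ratio of Arntl was 1.2 in untreated mice (95% interval 0.948 to 1.53, adjusted p = 0.277) and 1.01 in treated mice (0.781 to 1.30, adjusted p = 0.994).

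Clock, the usual partner of Arntl, read 74.2, 74.0 and 68.3 in untreated wild type and 67.9, 84.4, 64.0 and 83.9 in untreated R6/2 arrays. With treatment it read 54.3, 65.2 and 79.8 in wild type and 85.8, 73.2 and 67.5 in R6/2 arrays. All 4 groups overlap. Its R6/2 to wild type ratio was 1.03 (95% interval 0.811 to 1.32, adjusted p = 0.874) in untreated and 1.14 (0.884 to 1.48, adjusted p = 0.862) in treated mice.

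Npas2, the forebrain relative of CLOCK, was the dimmest of the 8 probe sets, with a mean signal of 25.7 where the filter stood at 24.9, so it passed narrowly. Its untreated R6/2 arrays all lie under the filter. Npas2 fell below the filter without untreated wild type array 2 or 3, without any 1 of the treated wild type arrays, or with only the groups compared. It also fell below a filter set at the median of all probe sets. It read 29.7, 57.7 and 43.7 in untreated wild type arrays and 21.2, 6.3, 4.4 and 23.4 in untreated R6/2 arrays. No untreated R6/2 array reaches the lowest wild type array, and arrays 2 and 3 are far below arrays 1 and 4. The log2 difference was -1.96 ± 0.50 (SE, adjusted p = 0.0242). Arrays 2 and 3 are close to the floor of 3.1 but above it. With a floor of 10, which replaces both readings, the difference was -1.5. Without arrays 2 and 3 it was -0.92 (adjusted p = 0.126), and without array 2 alone -1.70 (adjusted p = 0.0668), so the call rests on those arrays. It was also lost without the filter (adjusted p = 0.0755). In treated mice Npas2 read 39.4, 57.1 and 54.2 in wild type and 33.2, 24.9 and 20.8 in R6/2 arrays, again without overlap, and the difference of -0.94 ± 0.53 did not pass (adjusted p = 0.682).

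Among the repressors, Per1, an early responder of the loop, read 233.8, 282.8 and 227.3 in untreated wild type and 89.1, 72.5, 67.7 and 115.8 in untreated R6/2 arrays. In treated mice it read 229.8, 236.1 and 280.7 in wild type and 110.3, 124.1 and 110.3 in R6/2 arrays. The highest R6/2 array of either arm, at 124.1, is well under the lowest wild type array, at 227.3. Per1 was 2.93-fold lower in untreated R6/2 mice (log2 difference -1.55 ± 0.17, adjusted p = 0.000256) and 2.16-fold lower in treated R6/2 mice (-1.11 ± 0.18, adjusted p = 0.00853). The treated value was -1.08 (adjusted p = 0.053) without treated R6/2 array 1.

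Bhlhe40 had the smallest p-value of all 7453 probe sets in untreated mice. It read 279.1, 249.5 and 235.8 in wild type and 96.1, 86.8, 73.4 and 76.9 in R6/2 arrays, a 3.07-fold lower level in R6/2 (log2 difference -1.62 ± 0.14, adjusted p = 6.45e-05). In treated mice it read 324.9, 294.9 and 247.1 in wild type and 108.2, 129.3 and 108.0 in R6/2 arrays, 2.50-fold lower (-1.32 ± 0.15, adjusted p = 0.000675). Genotypes do not overlap in either arm, and its spread within groups was small, with a residual SD of 0.166 on the log2 scale (20.4th percentile of the probe sets tested).

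Per2, a partner of PER1 in the repressor complex, gave a different picture from Per1. In untreated mice it read 64.3, 53.2 and 48.8 in wild type and 41.0, 60.3, 55.0 and 29.6 in R6/2 arrays, with overlap. Arrays 2 and 3, which were among the lowest for Per1 and Npas2, are the highest R6/2 arrays for Per2. The R6/2 to wild type ratio was 0.813 (95% interval 0.55 to 1.2, adjusted p = 0.47). In treated mice it read 67.3, 71.9 and 48.1 in wild type and 26.6, 41.8 and 23.5 in R6/2 arrays, without overlap, a ratio of 0.482 (0.317 to 0.733) that did not pass over all probe sets (adjusted p = 0.135).

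Cry1, which encodes the strongest repressor of the pair, read 168.5, 147.9 and 170.0 in untreated wild type and 161.2, 151.8, 210.5 and 173.0 in untreated R6/2 arrays. In treated mice it read 141.8, 127.1 and 108.1 in wild type and 129.7, 136.0 and 144.8 in R6/2 arrays. Genotypes overlap in both arms, and the untreated arrays are the higher ones in both genotypes. The R6/2 to wild type ratio was 1.07 (95% interval 0.87 to 1.31, adjusted p = 0.676) in untreated and 1.09 (0.88 to 1.36, adjusted p = 0.912) in treated mice.

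Dbp, a transcription factor of the output arm, read 64.7, 91.3 and 109.1 in untreated wild type and 37.1, 38.3, 36.5 and 37.7 in untreated R6/2 arrays. With treatment it read 97.9, 75.4 and 98.8 in wild type and 24.1, 39.3 and 31.3 in R6/2 arrays. No R6/2 array exceeds 39.3 and no wild type array is under 64.7. Dbp was 2.31-fold lower in untreated R6/2 mice (log2 difference -1.21 ± 0.20, adjusted p = 0.00427) and 2.91-fold lower in treated R6/2 mice (-1.54 ± 0.22, adjusted p = 0.00348).

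**Figure D2:**
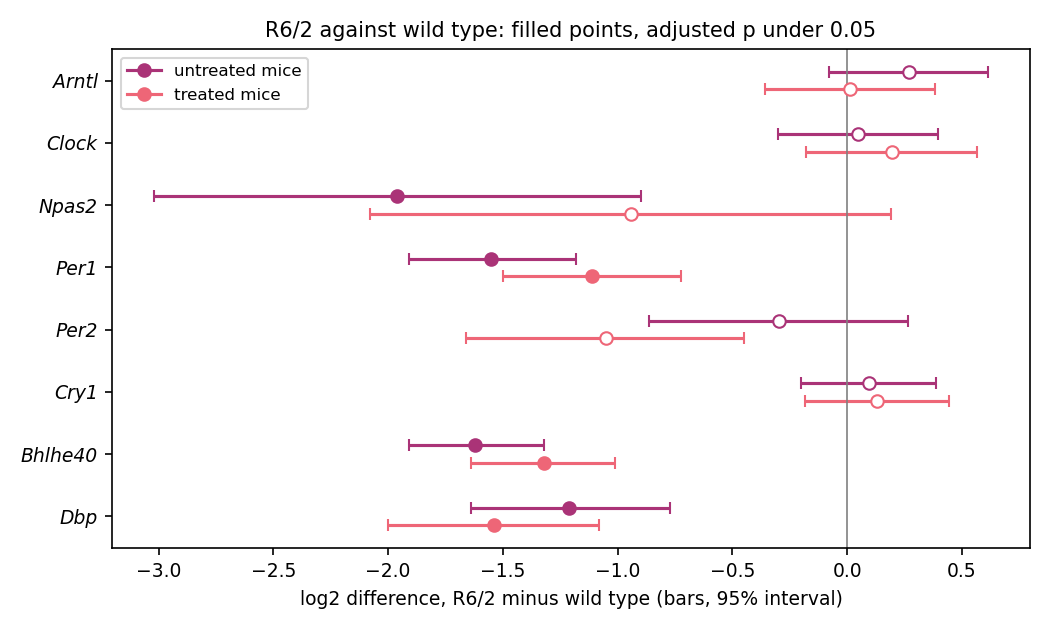
Log2 difference between R6/2 and wild type mice for the 8 clock genes in untreated and treated mice, with 95% intervals from limma; filled points have an adjusted p under 0.05. Bhlhe40, Per1 and Dbp lie between -1.11 and -1.62 in both arms, and the intervals of Arntl, Clock and Cry1 cross 0.

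Averaged over both arms, Bhlhe40, Per1 and Dbp were lower, Npas2 passed with the limit given above, and none of the 8 was higher, where 4.04% of all probe sets were lower and 2.58% higher. All 7 R6/2 arrays lay under all 6 wild type arrays for Bhlhe40, Per1 and Dbp, 3 of the 8, against 2.37% of all probe sets. The log2 differences were -1.47 ± 0.10 for Bhlhe40 (adjusted p = 1.85e-06), -1.33 ± 0.13 for Per1 (adjusted p = 2.1e-05), -1.37 ± 0.15 for Dbp (adjusted p = 6.67e-05) and -1.45 ± 0.36 for Npas2 (adjusted p = 0.0282). The call of Npas2 was lost without the filter (adjusted p = 0.0892) and without untreated R6/2 array 2, treated R6/2 array 2 or treated R6/2 array 3 (adjusted p = 0.053, 0.0536 and 0.0722). An exact two-sided permutation of the genotype labels within each arm gave p = 0.00286 for Bhlhe40, Per1 and Dbp, the smallest that its 700 permutations can give. Any probe set without overlap of the genotypes in each arm reaches this p, and the share of all probe sets that do was not counted. Npas2 reached it too, but is not counted because of the filter. Without untreated R6/2 arrays 2 and 3 the averages were -1.44 for Bhlhe40, -1.2 for Per1 and -1.37 for Dbp. Each was at the smallest p of the 200 permutations then possible, 0.01. The average of Npas2 was then -0.93. Per2 was at -0.68 ± 0.19, just outside the threshold (adjusted p = 0.0509, exact permutation p = 0.0257). It was -0.86 (adjusted p = 0.0186, exact permutation p = 0.01) without arrays 2 and 3. It also passed without either of them alone, without treated wild type array 3 or without treated R6/2 array 2 (adjusted p = 0.0437 for array 3, 0.0429 for array 2, 0.049 and 0.0259). Arntl, Clock and Cry1 were at 0.14 ± 0.12, 0.12 ± 0.12 and 0.11 ± 0.10, with adjusted p of 0.501, 0.577 and 0.532.

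For the triple treatment, none of the 8 genes passed in R6/2 or in wild type mice, and none of the 7453 probe sets did (background 0% in each). That background rose to 1.56% in R6/2 mice without untreated R6/2 array 1 and to 1.61% in wild type mice with array weights, and still none of the 8 passed. At an unadjusted p under 0.05 in limma, 5 of the 8 were past the threshold in R6/2 mice and 1 of the 8 in wild type mice, where 16.9% and 10.3% of all probe sets were. Treated and untreated groups did not overlap for Bhlhe40 (higher) and Cry1 (lower) in R6/2 mice and for Cry1 (lower) in wild type mice. Of all probe sets, 4.94% were so higher and 5.65% so lower in R6/2 mice, and 10.4% so lower in wild type mice. The R6/2 comparison shares its 4 untreated arrays with the genotype comparison of untreated mice, so the signs of both are not independent.

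In R6/2 mice Bhlhe40 was at 83.3 ± 10.2 (SD, n = 4) untreated and 115 ± 12.2 (SD, n = 3) treated, without overlap, a log2 difference of 0.47 ± 0.14 (adjusted p = 0.247). Per1 was at 86.3 ± 21.7 and 115 ± 7.97, with overlap, a difference of 0.44 ± 0.17 (adjusted p = 0.254), and 0.18 without untreated arrays 2 and 3. Npas2 differed by 1.25 ± 0.50 (adjusted p = 0.257), and by 0.21 without those arrays. Per2 was at -0.59 ± 0.26 (adjusted p = 0.28) and -0.23 without them, and Dbp at -0.27 ± 0.20 (adjusted p = 0.485).

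For Cry1 all 6 treated arrays, at 108.1 to 144.8, lie under all 7 untreated arrays, at 147.9 to 210.5, a pattern in this direction that 0.188% of all probe sets show. The log2 difference was -0.34 ± 0.14 in R6/2 mice (adjusted p = 0.263), -0.37 ± 0.15 in wild type mice (adjusted p = 0.416) and -0.36 ± 0.10 averaged over both (adjusted p = 0.261), which did not pass. The treatment differences of Arntl and Clock lay between -0.14 and 0.21 on the log2 scale in both genotypes, with adjusted p of 0.708 or more.

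**Figure D3:**
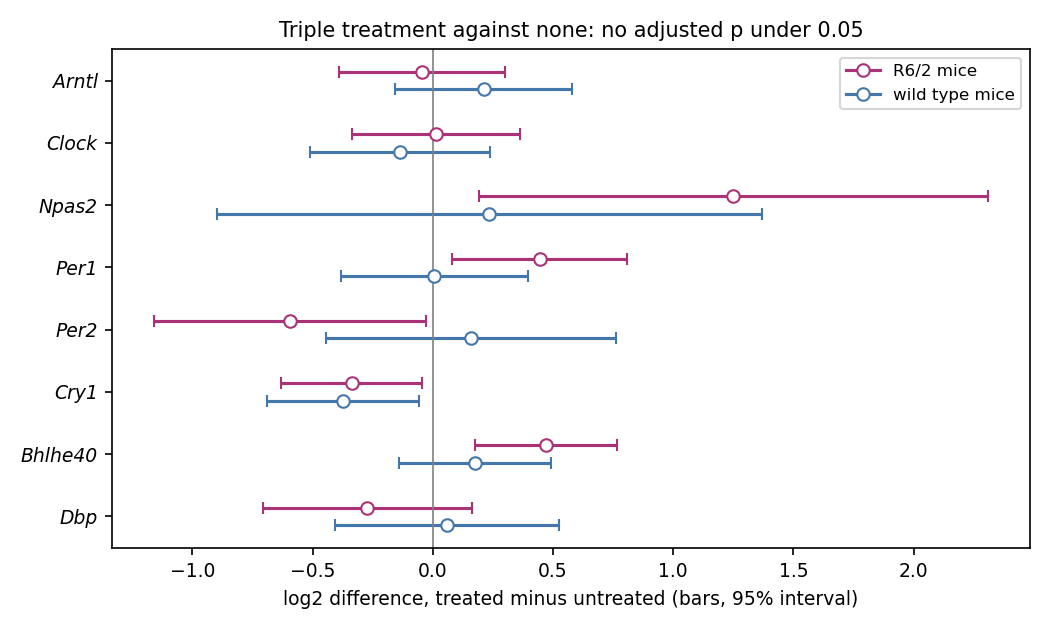
Log2 difference between treated and untreated mice for the 8 clock genes in R6/2 and wild type mice, with 95% intervals from limma before adjustment for multiple tests; all points are open because none had an adjusted p under 0.05. Cry1 lies at -0.34 and -0.37 in the 2 genotypes, and the interval of Npas2 is the widest.

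The interaction, the treatment difference in R6/2 minus that in wild type mice, passed for none of the 8 genes and for none of all probe sets (0%). None of the 8 was under an unadjusted p of 0.05 either, against 13.5% of all probe sets. The estimates furthest from 0 were 1.02 ± 0.73 for Npas2 (adjusted p = 0.537) and -0.75 ± 0.39 for Per2 (adjusted p = 0.407). For Per1 it was 0.44 ± 0.25, with a 95% interval of -0.096 to 0.97. Without untreated R6/2 arrays 2 and 3 these were -0.022 for Npas2, -0.39 for Per2 and 0.17 for Per1, so they rest in large part on those arrays. The smaller genotype difference of Per1 and the larger one of Per2 in treated mice were thus not shown to differ from those in untreated mice.

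Over the 13 arrays Per1, Bhlhe40 and Dbp moved together, with Pearson r of 0.942 for Per1 and Bhlhe40, 0.866 for Per1 and Dbp and 0.869 for Bhlhe40 and Dbp on the log2 scale. After each group's mean was removed these were -0.075, 0.184 and -0.048, so the likeness lies between the groups and not among arrays of a group. Npas2 and Per1 kept theirs, at 0.873 before and 0.819 after, and in untreated R6/2 mice both order the arrays 4, 1, 2, 3 from high to low. Per1 and Per2 were at 0.393 before and -0.609 after. These values are a description of 13 arrays that share groups and 2 arrays that stand apart.

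The genes whose log2 values were most like each clock gene over the 13 arrays were sought among probe sets with 1 gene that passed the filter. For Bhlhe40 they were Prkcd (r = 0.967), Egr2 (0.965) and Tyro3 (0.963), and for Per1 Tyro3 (0.973), Oxt (0.966) and Htra1 (0.965). For Dbp they were Acyp1 (0.956), Hpca (0.953) and Cck (0.951), and for Npas2 Baiap2 (0.972), Csnk1g2 (0.965) and Rap1gap (0.964). For Per2 they were Nsg1 (0.942), Cdh13 (0.929) and Nrsn1 (0.916). The best values of the other 3 were 0.843 for Clock with Dnajc4, 0.926 for Arntl with Nfatc2 and 0.892 for Cry1 with Tfb2m. All these values are the highest of a search over many probe sets and are a description with no test.

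Of 38 further genes of the clock and its inputs and outputs, 25 had a probe set of their own and 22 passed the filter. In untreated mice 6 of the 22 were lower in R6/2 brain and none was higher, against 6.41% lower and 5.49% higher of all probe sets. The output genes Tef, a relative of Dbp, and Klf9, a Krüppel-like factor, were at -0.90 ± 0.20 (adjusted p = 0.0152) and -0.62 ± 0.13 (adjusted p = 0.0117). The repressor Cry2 was at -1.23 ± 0.29 (adjusted p = 0.0186) and Rora, an activator of Arntl, at -0.70 ± 0.20 (adjusted p = 0.0406). The kinase gene Csnk1e, whose product phosphorylates PER proteins, was at -0.59 ± 0.18 (adjusted p = 0.0434). Adcyap1r1, the PACAP receptor of the light input, was at -0.98 ± 0.22 (adjusted p = 0.0152). Without untreated R6/2 arrays 2 and 3 only Klf9 of the 6 passed, at -0.78 (adjusted p = 0.00584), while Cry2 was at -0.71 and Tef at -0.65, and 2.24% of all probe sets passed. The count also fell to 2, 1 and 1 without untreated wild type array 1, 2 or 3, and to 3 without untreated R6/2 array 2 or without the filter. A second probe set of Klf9 did not pass with all arrays. It was at -0.54 (adjusted p = 0.0715) in untreated mice and -0.38 (adjusted p = 0.111) averaged over both arms. A second probe set of Rora lay below the filter and read 2.6 to 5.3 over the arrays.

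In treated mice none of the 22 passed in limma (0 lower, 0 higher), where 0.792% of all probe sets did. At an unadjusted p under 0.05 there were 4 of the 22, against 9.19% of all probe sets, and 1 passed without untreated R6/2 array 3. Cry2 was at 0.27 ± 0.31 where it had been negative in untreated mice. The difference of those values, the interaction, was 1.49 ± 0.42 and did not pass (adjusted p = 0.305). Averaged over both arms, 4 of the 22 were lower and 1 higher, against 4.04% and 2.58% of all probe sets. The deubiquitinase gene Usp2 was at -0.44 ± 0.090 (adjusted p = 0.00944), Klf9 at -0.48 ± 0.094 (adjusted p = 0.00777), Adcyap1, which encodes PACAP, at -0.51 ± 0.10 (adjusted p = 0.00935) and Rora at -0.55 ± 0.15 (adjusted p = 0.0389). Nampt, whose product makes a precursor of NAD, was higher at 0.34 ± 0.096 (adjusted p = 0.0497). Without untreated R6/2 arrays 2 and 3, Usp2, Klf9 and Adcyap1 still passed, while Rora (-0.37, adjusted p = 0.0775) and Nampt (0.31, adjusted p = 0.11) did not. Id2 (-0.41, adjusted p = 0.0168), an inhibitor of basic helix-loop-helix factors, and Nr1d2 (-0.37, adjusted p = 0.0296), a relative of Nr1d1, passed in that setting and not with all arrays, which made 5. Leaving out 1 array at a time, 3 passed without any one of untreated wild type arrays 2 and 3, treated wild type arrays 2 and 3, untreated R6/2 array 2 and the treated R6/2 arrays. Nr1d1, the REV-ERB alpha repressor, was at 0.14 in untreated and -0.11 in treated mice, and Per3 at -0.038 and -0.27, none of which passed.

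**Figure D4:**
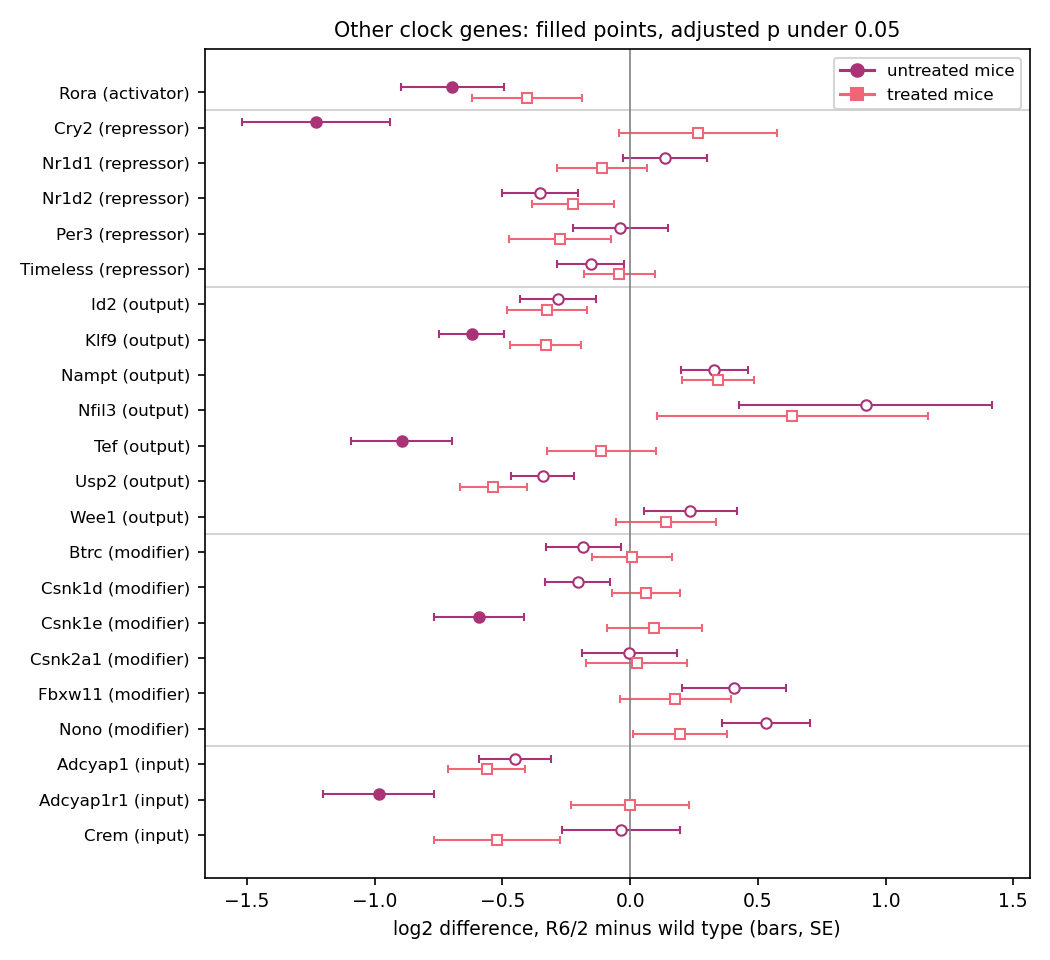
Log2 difference between R6/2 and wild type mice for the 22 other clock genes, with their place in the loop, in untreated (circles) and treated (squares) mice, bars showing the SE; filled points have an adjusted p under 0.05. The 6 filled points, from Cry2 at -1.23 to Csnk1e at -0.59, are all of untreated mice.

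Markers of cell types also moved with genotype, and in a piece of tissue fewer cells of a type and less RNA per cell cannot be told apart. Of 9 genes of the suprachiasmatic nucleus and hypothalamus, 6 had a probe set and 5 passed the filter, and 3 of these 5 were lower in untreated R6/2 mice, against 6.41% of all probe sets. They were the peptide genes Oxt (-1.30, adjusted p = 0.000511), Hcrt (-1.48, adjusted p = 0.00595) and Vip (-0.66, adjusted p = 0.0389). In treated mice 1 of 5 passed, Oxt at -0.81 (adjusted p = 0.0432), against 0.711% lower of all probe sets. The remaining genes, Six3 and Lhx1, passed in neither arm. Six3 overlapped between genotypes in both arms and Lhx1 in treated mice. The summed intensity of the 5 genes was 413.6 to 509.3 in untreated and 407.0 to 445.8 in treated wild type mice. In R6/2 mice it was 175.7 to 242.7 and 214.1 to 292.6. Oxt and Hcrt were the brightest of the 5 in wild type mice and weigh most in the sum there. Avp, a peptide of the suprachiasmatic nucleus whose probe set lay below the filter, read 22.9 to 64.4 in wild type and 6.3 to 8.4 in R6/2 arrays.

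Neuron markers had 1 of 7 lower in untreated R6/2 mice, astrocyte markers 2 of 6, oligodendrocyte markers 3 of 5 and blood markers 1 of 3, against 6.41% of all probe sets, and none of these passed in treated mice. By their brightest probe sets none was higher, but a second probe set of the neuron marker Stmn2 was higher in untreated R6/2 mice at 0.57 (adjusted p = 0.0152), where its brightest was at 0.14 (adjusted p = 0.369). Summed oligodendrocyte markers were 3521 to 4060 and 3615 to 4070 in untreated and treated wild type mice against 2097 to 2672 and 2354 to 3296 in R6/2 mice. Summed neuron markers were 8990 to 9314 and 8562 to 9287 against 7138 to 8522 and 7753 to 8361. Choroid plexus, cerebellum and pituitary markers had none past the threshold of 3, 4 and 5 genes. All marker calls are of the fit with all arrays, and their dependence on untreated R6/2 arrays 2 and 3 is not given. The part of these markers in the lower levels of Bhlhe40, Per1, Dbp and Npas2 was not tested.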

How the data were processed

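RNA of mouse brain hemispheres was hybridised to 13 Affymetrix MG-U74Av2 arrays. The authors deposited linear intensities. From the values, each array has a mean near 100 after 2% is trimmed at each end; the software is not given in the sources used here. Values under 3.1 (10th percentile) were set to 3.1 and log2 was taken without further normalization. Probe sets with a mean log2 under the 40th percentile were left out, as were 66 controls. A mean per group was fitted over all 13 arrays with limma 3.58.1 in R 4.3.3 (moderated variances following the intensity), two-sided, with Benjamini-Hochberg adjustment over the 7453 probe sets and a threshold of 0.05. The probe sets of the 8 genes were named, kept or not, with those of the other clock genes past the threshold. The likeness rule took the 3 highest correlations. The members and lists were chosen with earlier results of these data known. Precision is limited by the number of arrays. The fit was tested on simulated data. Alternatives were quantile and median scaling, floors, filters, variance models, array weights and arrays left out.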

Additional observations from a re-analysis of the deposited data

How the results depend on the processing

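In all alternatives run, Bhlhe40 and Dbp stayed lower and past the threshold in untreated, treated and averaged comparisons of genotype, and so did Per1 except in treated mice without treated R6/2 array 1. Leaving out 1 array at a time, 3 to 4 clock genes passed in untreated mice (Npas2 counted where tested), 2 to 3 in treated mice and 3 to 5 averaged, and none passed for treatment or the interaction. Npas2 fell under the filter in 7 of 24 alternatives of the untreated comparison, passed in 14 and missed in 3. Per2 passed in treated mice with array weights (-1.27, adjusted p = 0.00737). In that setting 2.79% of all probe sets passed, against 0.792% in the main fit. Averaged over both arms, Per2 passed in 10 of 23 alternatives. The share of all probe sets that passed was also followed over fits that each lacked 1 array. In treated mice it ran from 0.268% (without treated R6/2 array 1) to 1.3% (without untreated R6/2 array 3). For the average it ran from 3.53% (without untreated wild type array 2) to 9.46% (without untreated R6/2 array 1). Some other settings fell outside these ranges, such as the 2.79% above. The averaged share was 12.5% under array weights and 3.45% when no filter was used. The 2 dim probe sets of Cry1 gave no usable value. No paired analysis was possible because the labels give no shared replicate numbers.

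The interaction of Npas2, 1.02 with all arrays, was -0.022 without untreated R6/2 arrays 2 and 3. Of the values nearer 0 that missed the threshold throughout, some changed sign. With median centring Arntl in treated mice was -0.00054, Clock under treatment in R6/2 mice -0.029 and Per1 under treatment in wild type mice -0.049. With quantile normalization Clock under treatment in R6/2 mice was -0.03. With array weights Arntl (0.014) and Clock (-0.018) under treatment in R6/2 mice and Dbp (-0.12) and Per1 (-0.014) under treatment in wild type mice turned. Without untreated R6/2 arrays 2 and 3 Clock under treatment in R6/2 mice was -0.0068. Leaving out 1 array, the genotype difference in untreated mice ranged from -0.014 to 0.12 for Clock and -0.00037 to 0.16 for Cry1, and that of Arntl in treated mice from -0.11 to 0.12. Treatment in R6/2 mice ranged from -0.17 to 0.058 for Arntl and -0.084 to 0.090 for Clock. Treatment in wild type mice ranged from -0.15 to 0.23 for Dbp, -0.28 to 0.00035 for Clock, -0.083 to 0.11 for Per1 and -0.018 to 0.23 for Npas2. Averaged treatment ranged from -0.011 to 0.15 for Arntl and -0.13 to 0.0064 for Clock, and the interaction of Cry1 from -0.069 to 0.13.

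The count of other clock genes, an alternative chosen after seeing the data, was less stable. In untreated mice the 6 became 3 with no filter, 10 with array weights, 1 without untreated R6/2 arrays 2 and 3, 1 with only the groups compared and 1 to 8 leaving out 1 array. The 1 was reached without untreated wild type array 2 or 3, and 2 without untreated wild type array 1. The counts take in both directions. Nono was called higher with array weights (0.48, adjusted p = 0.0364) and with quantile normalization (0.54, adjusted p = 0.044). It was also called higher without untreated R6/2 array 4 (0.60) or array 1 (0.68). Nampt was called higher without untreated R6/2 array 1 (0.41, adjusted p = 0.0493). In treated mice the 0 became 1 with array weights, 1 without arrays 2 and 3 (Usp2 at -0.54, adjusted p = 0.0208) and 0 to 1 leaving out 1 array. Averaged, the 5 became 10 with array weights and 3 to 7 leaving out 1 array. The cause was not tested.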

Other observations

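Some clock genes have a second probe set whose value differs from the brighter one described. For Usp2 in treated mice the other probe set was at -0.82 (adjusted p = 0.0173) and the brighter one at -0.54 (adjusted p = 0.0878). In untreated mice the kinase gene Csnk1d was at -0.69 (adjusted p = 0.0351) on another probe set and -0.21 on the brightest, and Fbxw11, a ubiquitin ligase gene, at -0.69 (adjusted p = 0.0438) and 0.41. Csnk1d and Fbxw11 were chosen after their values were seen. On these other probe sets, untreated R6/2 arrays 2 and 3 were the lowest untreated R6/2 arrays. They read 288.3 and 212.4 for Csnk1d and 201.4 and 131.7 for Fbxw11, and the differences without them are not given.

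After each group's mean was removed, the gene most like Per1 over the 13 arrays was Ikbkb (r = 0.945), the one most like Npas2 was Wbp2 (0.962) and the one most like Per2 was Rnf103 (0.969). For Bhlhe40 it was Ahi1 (0.943), for Dbp Pcp4l1 (0.896), for Arntl C1qb (0.919), for Clock Nfu1 (0.936) and for Cry1 Use1 (0.919). Each value is the highest of a search over all probe sets with 1 gene that passed the filter. Arntl, Clock and Cry1, which passed in no genotype comparison, reach similar values. The values are a description, and no test was made.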
